A study of Mus musculus with 96 samples.

Results

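Glycogen is made by synthases, taken down by phosphorylases and kept in balance by subunits that bring protein phosphatase 1 (PP1) to it, and the 10 genes described here encode these proteins. They were taken from the count table by their gene names, 10 of its 56748 genes. Of the 10, Ppp1r3a, Ppp1r3b, Ppp1r3c, Ppp1r3d, Ppp1r3e and Ppp1r3g encode targeting subunits of PP1. Gys1 and Gys2 encode the muscle and liver forms of glycogen synthase, and Pygl and Pygm the liver and muscle forms of glycogen phosphorylase.

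Glycogen synthase adds glucose to the polymer and is switched on when phosphate is removed from it, whereas glycogen phosphorylase releases glucose and is switched off by the same step. The catalytic subunit of PP1 removes these phosphates but finds glycogen poorly by itself, and each targeting subunit binds both the enzyme and the particle. Liver draws on its store to feed the blood between meals, muscle fibres spend theirs on contraction, and in brain most of the store lies in astrocytes.

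RNA was sequenced from liver, skeletal muscle and cerebral cortex of mice that ate freely (ad libitum, AL) or went without food for 16 h of each day (intermittent fasting, IF), to ask how the regimen acts on each organ. Mice 1 to 8 (AL) and 9 to 16 (IF) were male C57BL/6 animals on standard chow. They were placed on their diets at 6 weeks of age and killed 4 months later. Per the paper, the IF mice were killed at the end of the daily fast, though the hours of killing run past its scheduled end. Mice 25 to 32 (AL) and 33 to 40 (IF) are labelled female, and the labels give no strain, age or time on the diet for them. Each group held 8 libraries, except 7 for cortex of AL mice 1 to 8, in which mouse 1 was omitted.

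The male IF mice were, per the paper, sampled at the end of a fast, and the AL mice ate freely. By the hours it gives, food was open to the IF mice only within the light phase. In the male mice, months on the regimen, hours since the last meal and time of day of feeding therefore cannot be told apart. When mice 25 to 40 were killed is not given. Sex, date and any other difference between the 2 sets of mice cannot be told apart either. Total counts on genes ran from 26097314 to 49838004 over the 95 libraries. Levels are raw counts scaled to a library total of 1000000 (CPM), and levels of different genes are compared only per kilobase of the gene length in the table (CPM per kb). Diets were compared in each tissue and set of mice with edgeR's quasi-likelihood test over all genes that passed its filter on low counts, and a gene was called at a Benjamini-Hochberg adjusted p under 0.05. A positive log2 fold change means a higher level under IF. Its error, written SE, was derived from the test as the absolute log2 fold change over the square root of the F statistic. It is an approximate standard error, above all where a group had few counts.

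Markers of each organ were where the labels put them. Summed CPM of 5 hepatocyte genes (Alb, Apoa1, Apob, Ttr, Cps1) averaged 57715 in liver of AL mice 1 to 8 and 0.626 in their muscle. In AL cortex the same sum had a median of 29.1, with 3104 in mouse 4, and per kb its most abundant gene was Ttr, which is expressed in the choroid plexus as well as the liver. Summed CPM of 5 muscle fibre genes (Acta1, Ckm, Mylpf, Tnnt3, Myh4) averaged 133260 in AL muscle, 1.74 in AL liver and 20.2 in AL cortex, all in the male set. Among the myosins that mark fibre types (Myh7, Myh2, Myh1, Myh4), Myh4 of fast fibres was the most abundant per kb in muscle of every group. Summed CPM of 5 neuronal genes (Snap25, Syt1, Slc17a7, Gad1, Rbfox3) averaged 6070 in cortex of AL male mice, against 5.05 in their liver and 0.732 in their muscle.

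Sex markers matched the labels too. Xist had at most 0.612 CPM in any library of mice 1 to 16 and at least 36.8 CPM in every library of mice 25 to 40. Macrophage genes (Clec4f, Cd5l, Adgre1, Csf1r, Cd68) had a median sum of 163 CPM in liver of AL and 209.9 CPM in liver of IF male mice, with 588 CPM in mouse 16. Of these 5, only Clec4f of Kupffer cells was called there, higher under IF (log2 fold change 0.41, adjusted p = 0.0468), and its part in the liver results was not tested. Of 5 adipocyte markers (Adipoq, Plin1, Cidec, Lep, Cfd) only Cfd was called in male liver, lower under IF (-4.70, adjusted p = 2.38e-10). Cidec was not called (0.24), and the other 3 were below the filter on low counts. Of the hepatocyte genes only Apoa1 was called in male liver, lower under IF (-0.48, adjusted p = 0.0050). In male muscle Ckm (-0.19, adjusted p = 0.0382), Mylpf (-0.29, adjusted p = 0.0128) and Csf1r (-0.44, adjusted p = 0.0417) were lower. The other tested fibre and macrophage genes were not called there, and the part of these shifts in the results was not tested. Erythrocyte markers in liver and adipocyte markers in muscle are given beside the results they moved with.

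Per kb, Gys2 exceeded Gys1 and Pygl exceeded Pygm in liver, and the reverse held in muscle and in cortex. In liver of AL mice 1 to 8, mean CPM per kb was 34.7 ± 4.40 for Gys2 and 29.4 ± 11.96 for Ppp1r3b (SD, n = 8). Close to them stood Pygl at 28.9 ± 4.06 and Ppp1r3c at 18.0 ± 9.93 CPM per kb. The means of Gys2, Ppp1r3b and Pygl differed by less than the SD of Ppp1r3b, and a step of more than 10-fold separated all 4 from Ppp1r3e at 1.57, Gys1 at 1.41 and Pygm at 0.677 CPM per kb. Ppp1r3g (0.0707), Ppp1r3d (0.0628) and Ppp1r3a (0.00731 CPM per kb) were at the bottom in AL liver.

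Muscle was led by Pygm, the phosphorylase of muscle fibres, at 2959 ± 230 CPM per kb in AL mice 1 to 8 (SD, n = 8). Ppp1r3c at 110.1 ± 15.9 and Gys1 at 99.3 ± 3.92 CPM per kb followed and overlapped each other, and Ppp1r3a, the classical subunit of muscle glycogen, stood at 21.2 ± 3.98. Ppp1r3e, Ppp1r3d, Pygl and Ppp1r3b lay between 0.135 and 1.097 CPM per kb in the same libraries, and Gys2 (0.0492) and Ppp1r3g (0.00594) were lowest. In cortex of AL male mice, Ppp1r3c at 12.5 ± 2.19 and Pygm at 11.7 ± 2.25 CPM per kb (SD, n = 7) did not differ beyond their spread, nor did Gys1 at 5.09 ± 0.320 and Ppp1r3g at 4.85 ± 0.683. Cortex was thus the tissue of AL mice with the most Ppp1r3g per kb.

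**Figure D1:**
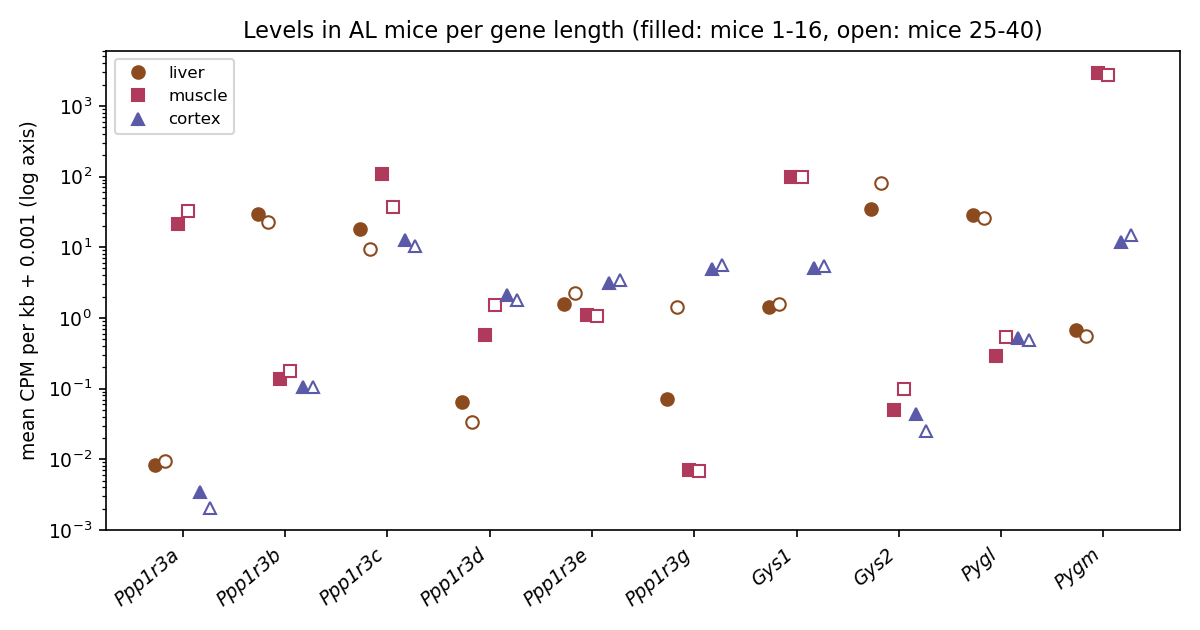
Mean level of each of the 10 genes in liver, muscle and cortex of AL mice, in CPM per kb of gene length plus 0.001 on a log axis, with mice 1-16 as filled and mice 25-40 as open symbols (n = 8 mice per point, 7 for cortex of mice 1-16). Pygm in muscle stands highest at 2959 CPM per kb, and Ppp1r3g has more RNA in cortex (4.85) than in liver (0.0707) of mice 1-16.

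Liver of the male mice gave the widest response. Of 8 members that passed the filter there, 7 were called (7234 of all 16204 genes tested, or 44.6%, were called), 3 of them higher under IF (23.5% of all genes) and 4 lower (21.1%). Ppp1r3g, Gys2 and Ppp1r3e were higher, and Ppp1r3c, Ppp1r3b, Gys1 and Pygl were lower. Pygm was not called, and Ppp1r3a and Ppp1r3d were below the filter. The median absolute log2 fold change was 0.76 over the 8 members and 0.46 over all genes tested. Overlap of libraries between the diets was looked at only for glycogen genes, so no share over all genes stands beside it. In bulk tissue, fewer cells of a type and less RNA per cell cannot be told apart.

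Ppp1r3g, a targeting subunit that promotes liver glycogen synthesis after a meal, was almost silent in AL liver, with a lowest, median and highest level of 0, 0.126 and 0.728 CPM. Under IF the same values were 26.96, 43.5 and 124 CPM. Every IF mouse lay above every AL mouse, mouse 11 was far above the other IF mice, and mice 1 and 3 had no count at all. The log2 fold change was 8.16 ± 0.592 (SE, adjusted p = 3.19e-08), and since all 8 AL libraries together held only 47 counts of the gene, its exact size rests on few counts. With at least 10 counts asked of every library Ppp1r3g was not tested. Then 6 of 7 members were called, 2 of them higher, beside 6682 genes in all (3541 higher and 3141 lower).

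Ppp1r3c, also known as PTG, went the other way. Its levels in AL liver ran from 20.7 over a median of 40.02 to 99.7 CPM, with mice 1 and 2 highest. Under IF they ran from 9.93 over 13.8 to 26.5 CPM, and 7 of 8 IF mice lay below every AL mouse, the exception being mouse 10. The log2 fold change was -1.70 ± 0.311 (adjusted p = 0.000327).

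Ppp1r3b encodes the subunit best known from liver, and there it had 99.1, 169 and 340.4 CPM as the lowest, median and highest AL level. IF mice had 65.3, 108 and 173 CPM, so that the groups overlapped and 3 of 8 IF mice lay below every AL mouse. Its log2 fold change was -0.84 ± 0.205 (adjusted p = 0.00234). The less abundant Ppp1r3e had 2.64, 3.73 and 5.82 CPM in AL mice against 5.28, 6.74 and 7.44 CPM in IF mice. All but 3 IF mice were above every AL mouse, and the log2 fold change was 0.63 ± 0.164 (adjusted p = 0.00316). On the per kb scale, the order of the mean levels thus changed between the diets: Ppp1r3b, Ppp1r3c, Ppp1r3e, Ppp1r3g under AL became Ppp1r3g (19.7), Ppp1r3b (17.2), Ppp1r3c (5.82) and Ppp1r3e (2.56 CPM per kb) under IF, where the SD of Ppp1r3g (11.8) covered the step to Ppp1r3b.

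The synthases of liver split. Gys2, the liver enzyme, had 81.9, 90.7 and 119.5 CPM as the lowest, median and highest AL level and 175, 197 and 209 CPM under IF. No value was shared between the groups, the IF mice lay close together, and mouse 6 stood above the other AL mice. The log2 fold change was 0.99 ± 0.104 (adjusted p = 4.81e-08, higher in 8 of 8 IF mice than in any AL mouse). Gys1, the form of muscle and other tissues, had 4.18, 6.04 and 10.7 CPM in AL mice and 3.001, 4.31 and 6.81 CPM in IF mice. Its groups overlapped, with 4 IF mice below every AL mouse, and its log2 fold change was -0.69 ± 0.184 (adjusted p = 0.00387).

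Pygl, the phosphorylase that frees glucose from liver glycogen, fell as Gys2 rose. AL mice had 169.5, 195 and 252 CPM and IF mice 119, 134 and 147 CPM as the lowest, median and highest level. The highest IF mouse stayed below the lowest AL mouse, and mouse 2 was the highest of all. The log2 fold change was -0.66 ± 0.0969 (adjusted p = 5.5e-06). Pygm, with medians of 2.22 CPM (AL) and 2.57 CPM (IF), had a log2 fold change of 0.13 ± 0.269 (adjusted p = 0.728).

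**Figure D2:**
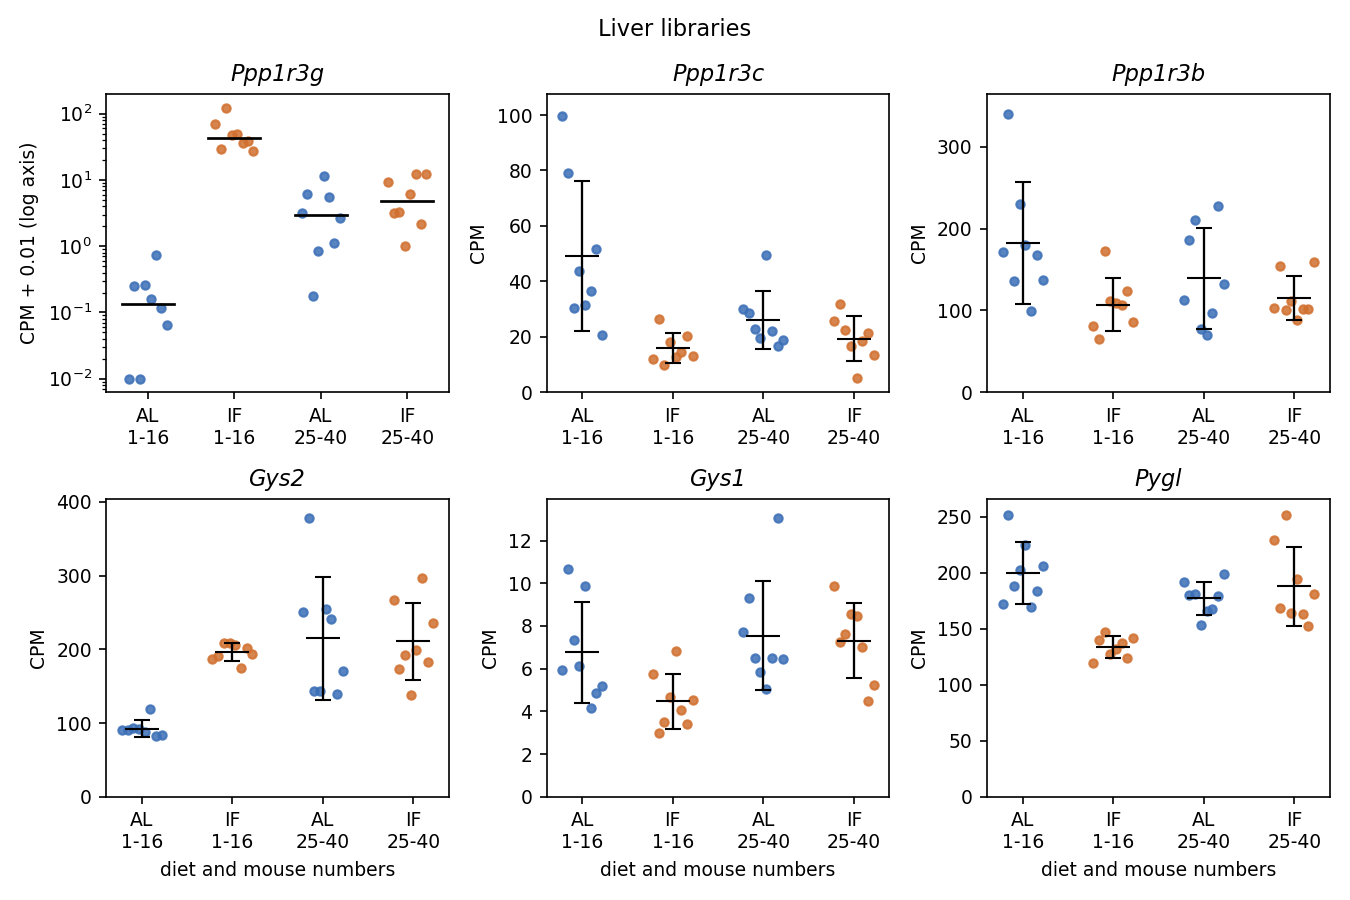
Level of 6 of the genes in each liver library, in CPM, by diet and mouse number (AL blue, IF orange, n = 8 mice per group). Black lines are the median for Ppp1r3g, drawn as CPM plus 0.01 on a log axis, and the mean with SD for the others. Among mice 1-16, the AL and IF points of Ppp1r3g, Gys2 and Pygl do not overlap. The share of all genes without overlap was not computed.

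Erythrocyte markers moved with diet in the same libraries. Of Hbb-bs, Hbb-bt, Hba-a1, Hba-a2 and Alas2, 3 of 5 were called higher under IF, and Alas2, the erythroid enzyme of haem synthesis, was not (log2 fold change 0.18, adjusted p = 0.459). Their summed level was 362, 569 and 956 CPM at its lowest, median and highest in AL mice, and 667, 2070 and 6879 CPM in IF mice. Hba-a1 was the most abundant per kb, none of the 5 was at 0 in either group, and mice 9, 10 and 16 held the highest sums. Without these 3 mice all 7 calls were kept, beside 6754 genes called in all (3475 higher and 3279 lower). Ppp1r3g was then at 8.35, Gys2 at 1.01 and Pygl at -0.67. With the mean log2 CPM of the 5 markers as a covariate, 5 of 7 calls were kept while those over all genes went from 7234 to 3995, and Ppp1r3b (log2 fold change -0.47, adjusted p = 0.188) and Ppp1r3e (0.59, adjusted p = 0.0675) were not called. Over all other alternatives, including those with libraries left out, the adjusted p ran from 3.56e-05 to 0.0350 for Ppp1r3b and from 0.00154 to 0.0167 for Ppp1r3e. Per the paper, the male mice were perfused with cold buffered saline before their tissues were frozen. The SE with the erythrocyte covariate was 0.251 for Ppp1r3b and 0.234 for Ppp1r3e, against 0.205 and 0.164 without it. The marker sum was itself higher under IF, so marker level and diet cannot be fully told apart in that fit. The part of erythrocytes in the results was not tested further.

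In liver of mice 25 to 40, edgeR called none of the 8 members tested (0% of 15938 genes in all, 0% higher and 0% lower). At an unadjusted p under 0.05 there were 919 genes and 0 members, and DESeq2 called 6 genes and 0 members. Ppp1r3g was present in both diets, from 0.168 over 2.90 to 11.3 CPM under AL and from 1.01 over 4.75 to 12.5 CPM under IF. These ranges overlapped, with 2 IF mice above every AL mouse, and all 16 libraries lay below the lowest IF library of the male set. Gys2 had 139, 205 and 378 CPM under AL and 138, 196 and 296 CPM under IF, and every library of both diets lay above all AL males. Whether the levels of the 2 sets of mice differ was not tested.

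Pygl had 154, 179 and 199 CPM in AL and 152, 175 and 251.5 CPM in IF mice of that set, and Ppp1r3c had 16.7, 22.5 and 49.7 CPM against 5.02, 19.9 and 31.8 CPM. Both genes overlapped between the diets. The median absolute log2 fold change was 0.24 over the 8 members and 0.15 over all genes tested.

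The response of liver itself differed between the sets for 5 of 9 members tested (23.7% of 17658 genes were called in that comparison). Ppp1r3g is among the 5, and its male AL liver libraries held only 47 counts, against 16226 under IF. The log2 difference, mice 25 to 40 minus mice 1 to 16, was -7.37 ± 0.979 for Ppp1r3g (adjusted p = 2.61e-06) and -0.94 ± 0.229 for Gys2 (adjusted p = 0.00239). It was 0.82 ± 0.149 for Pygl (adjusted p = 8.1e-05), 1.34 ± 0.440 for Ppp1r3c (adjusted p = 0.0259) and 0.72 ± 0.259 for Gys1 (adjusted p = 0.0388). Each of the 5 thus had the smaller response in mice 25 to 40. Ppp1r3b at 0.64 ± 0.324 (adjusted p = 0.158) and Ppp1r3e at -0.24 ± 0.254 (adjusted p = 0.544) were not called.

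In muscle of the male mice 3 of 9 members tested were called (23% of 15025 genes were called), all higher under IF (11.5% of all genes were higher and 11.6% lower). They were Ppp1r3a, the subunit of muscle glycogen, and the liver forms Gys2 and Pygl. With at least 10 counts asked of every library Gys2 was not tested. Then 2 of 8 members were called, both higher, beside 3360 genes in all (1656 higher and 1704 lower). Ppp1r3a had 104.5, 148 and 186 CPM in AL mice and 160.4, 225 and 275 CPM in IF mice. Only IF mouse 12 lay within the AL range, and the log2 fold change was 0.53 ± 0.115 (adjusted p = 0.0028). The median absolute log2 fold change was 0.42 over the 9 members and 0.19 over all genes tested.

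Gys2 was scarce in muscle, at 0, 0.106 and 0.331 CPM in AL mice and 0.0511, 0.799 and 3.02 CPM in IF mice. Its libraries held 38 counts in all under AL and 353 under IF, and 6 of 8 IF mice were above every AL mouse. The log2 fold change was 3.07 ± 0.628 (adjusted p = 0.0018). Pygl had 1.04, 1.74 and 3.62 CPM in AL mice and 2.90, 6.02 and 39.9 CPM in IF mice, with IF mice 12, 10 and 9 the highest. For it 5 of 8 IF mice were above every AL mouse, and the log2 fold change was 2.40 ± 0.567 (adjusted p = 0.00725).

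Adipocyte markers other than Lep were highest in the same 3 libraries, and Lep was highest in AL mouse 4 (18.8 CPM). Of the 5 markers, 4 were called higher in IF muscle, and Lep was not (log2 fold change -1.25, adjusted p = 0.238). Their sum was 30.1, 93.2 and 331.5 CPM at its lowest, median and highest in AL mice, and 112, 714 and 1860 CPM in IF mice, where mouse 12 was highest and mice 10 and 9 followed. Cfd was the most abundant per kb, and all 5 exceeded a mean of 1 CPM in both groups. Without IF mice 9, 10 and 12, the 3 calls were kept, while 3876 genes in all were called (1805 higher and 2071 lower). The log2 fold changes were then 0.63 for Ppp1r3a, 1.92 for Gys2 and 1.04 for Pygl. Those of Gys2 and Pygl were smaller than the values over all mice by more than 1.5 times. With the mean log2 CPM of the markers as a covariate, Ppp1r3a was at 0.70 (adjusted p = 0.000456), whereas Gys2 at 1.86 (adjusted p = 0.0537) and Pygl at 0.91 (adjusted p = 0.180) were not called, while 3410 genes in all were called against 3463 without the covariate. Over the other alternatives in which each was tested, including those with libraries left out, the adjusted p ran from 1.32e-06 to 0.0195 for Gys2 and from 6.05e-05 to 0.0159 for Pygl. Gys2 was below the filter with at least 10 counts in every library and without AL mouse 2 and IF mouse 10. The adipocyte marker sum was itself higher under IF, so marker level and diet cannot be fully told apart in the fit with the covariate. The part of fat cells in these values was not tested further.

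The 2 main enzymes of muscle showed no call. Pygm had 8119, 9749 and 10394 CPM in AL mice and 8838, 9754 and 10535 CPM in IF mice, at a log2 fold change of -0.03 ± 0.0627 (adjusted p = 0.758). Gys1 had 454, 473 and 507 CPM against 436, 479 and 520.3 CPM (-0.07 ± 0.0489, adjusted p = 0.292). Both genes overlapped between the diets, though 3 IF mice were below and 1 above the AL range of Gys1. Ppp1r3c had 262, 289.5 and 389 CPM in AL mice but 144, 305 and 625 CPM in IF mice, a wider spread with mouse 16 far above and 3 IF mice below all AL mice. Its log2 fold change was -0.06 ± 0.254 (adjusted p = 0.901). Ppp1r3b, Ppp1r3d and Ppp1r3e had medians of at most 3 CPM and were not called. For Ppp1r3b the log2 fold change of 1.20 came down to 0.39 without IF mouse 12 and turned to -0.37 without IF mice 9, 10 and 12 and to -0.22 with the adipocyte covariate. Ppp1r3g was below the filter, with 6 counts over all AL libraries and 8 over all IF libraries.

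**Figure D3:**
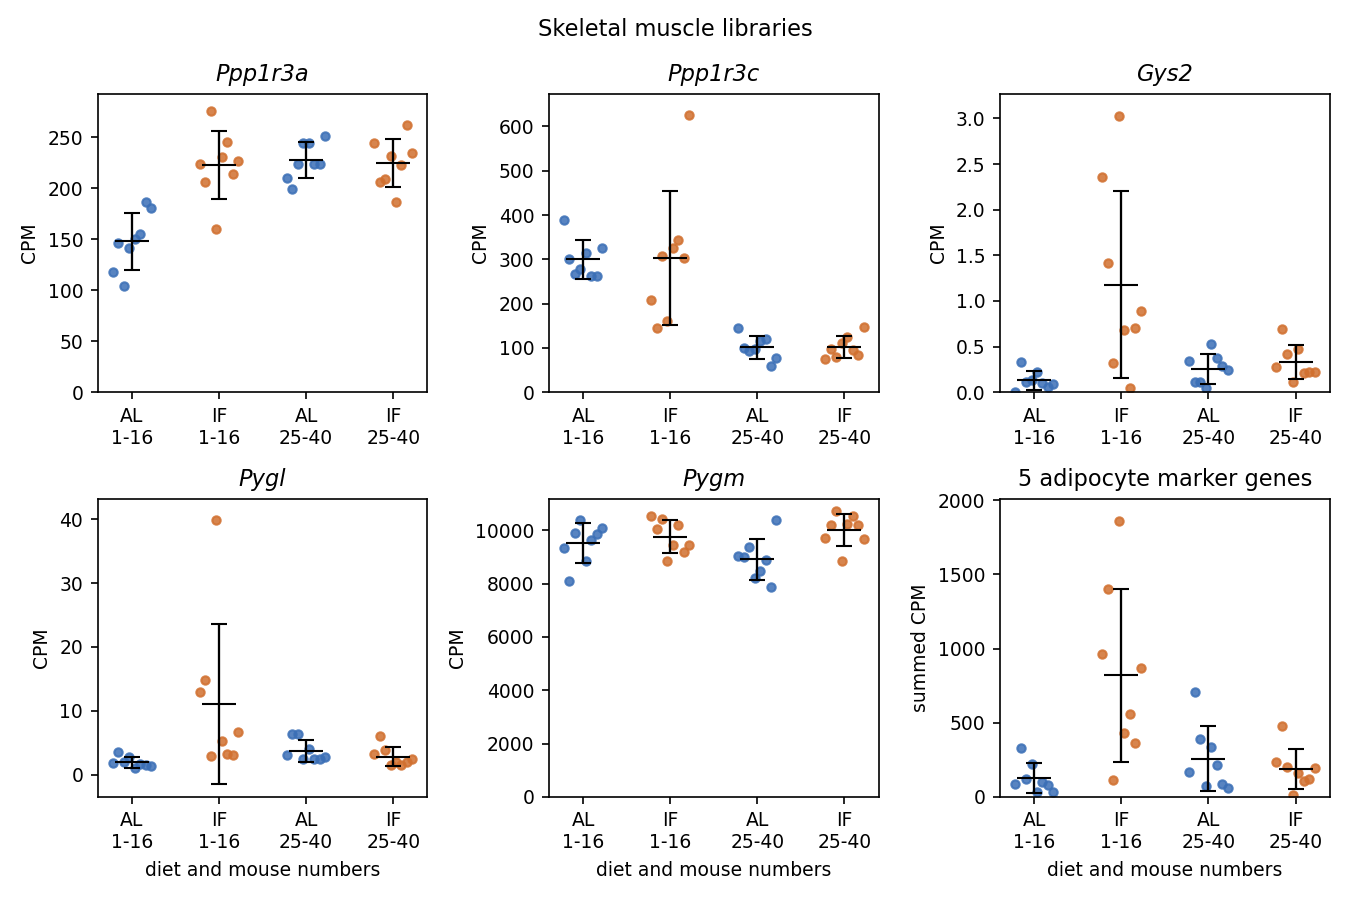
Level of 5 of the genes and summed level of 5 adipocyte markers in each muscle library, in CPM, by diet and mouse number (AL blue, IF orange, n = 8 mice per group, black lines for the mean with SD). Pygl and the marker sum are highest in the same IF mouse, number 12, at 39.9 and 1860 CPM, and the means of Ppp1r3c are lower in mice 25-40.

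In muscle of mice 25 to 40 edgeR called none of 9 members, against 1 of 15308 genes in all (0.00653% called, 0.00653% higher and 0% lower). An unadjusted p of edgeR under 0.05 held for 1644 genes, among them 2 members, Pygm (log2 fold change 0.24 ± 0.0729, adjusted p = 0.286) and Ppp1r3e (0.43 ± 0.143, adjusted p = 0.326). DESeq2 called 81 genes and 0 members. Ppp1r3a had 199.7, 224 and 250.8 CPM under AL and 187, 227 and 262 CPM under IF, with both medians close to that of the IF males. Ppp1r3c was low in this set, at 59.7, 99.2 and 144 CPM under AL and 76.0, 96.0 and 146 CPM under IF, and all 8 AL libraries lay below every AL library of the male set. The median absolute log2 fold change was 0.24 over the members and 0.12 over all genes.

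The difference in muscle response between the sets was called for 4 of 9 members (14.2% of 16346 genes). It was -0.46 ± 0.136 for Ppp1r3a (adjusted p = 0.0193), -2.61 ± 0.774 for Gys2 (adjusted p = 0.0197) and -2.71 ± 0.637 for Pygl (adjusted p = 0.00458). For Pygm it was 0.29 ± 0.0975 (adjusted p = 0.0414), although neither set alone had a call for this gene. The value of Gys2 rests on only 38 counts over the male AL muscle libraries, against 353 under IF. Adipocyte markers summed to a median of 193 CPM in AL and 179 CPM in IF muscle of mice 25 to 40. In male muscle Gys2 and Pygl were not called with these markers as a covariate (adjusted p = 0.0537 and 0.180). The differences between the sets were not tested with that covariate or without IF mice 9, 10 and 12.

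Cortex had the fewest calls among the tissues of the male mice. Of 8 members tested in the male mice only Ppp1r3g was called (7.21% of 18462 genes were called), and it was higher under IF (3.79% of all genes were higher and 3.43% lower). Over all genes, 1332 were called, and with single libraries left out 638 to 2060. Its levels were 10.9, 13.6 and 15.4 CPM in AL mice and 12.99, 16.2 and 19.3 CPM in IF mice, and all but mice 9 and 13 exceeded every AL mouse. The log2 fold change was 0.35 ± 0.0972 (adjusted p = 0.0344). Removal of any 1 of AL mice 2, 3, 5 and 7 or IF mice 10, 11 and 14 ended this call, with adjusted p up to 0.0799 and log2 fold changes of at least 0.30. Without AL mouse 2 and IF mouse 10 together the adjusted p was 0.115, in a range of 0.0114 to 0.115 over the alternatives.

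Ppp1r3c and Gys1 stood just outside the threshold in cortex. Ppp1r3c had 25.03, 34.4 and 42.8 CPM in AL mice and 20.3, 26.2 and 32.2 CPM in IF mice, with 2 IF mice below every AL mouse (log2 fold change -0.36 ± 0.110, adjusted p = 0.0544). Gys1 had 22.2, 25.1 and 26.5 CPM against 26.3, 27.1 and 31.7 CPM, and 7 of 8 IF mice exceeded every AL mouse (0.20 ± 0.0607, adjusted p = 0.0523). DESeq2 called both, at an adjusted p of 0.0257 for Ppp1r3c and 0.0193 for Gys1, and so did edgeR with a filter of at least 10 counts in every library (0.04999 and 0.0333). Gys1 was also called with RLE size factors (adjusted p = 0.0475), and Ppp1r3c without AL mouse 2 and IF mouse 10 (0.0473). Over all alternatives the adjusted p ran from 0.0241 to 0.104 for Ppp1r3c and from 0.0193 to 0.138 for Gys1. Leaving out AL mouse 5, IF mouse 10 or IF mouse 12 brought a call of Ppp1r3c, at adjusted p of 0.0281, 0.0437 and 0.0241. For Gys1 the same held without AL mouse 7 (0.0384), IF mouse 12 (0.0465) or IF mouse 16 (0.0428). Pygm, Pygl, Ppp1r3d, Ppp1r3e and Ppp1r3b were not called, with adjusted p from 0.730 to 0.983, and Gys2 and Ppp1r3a were below the filter.

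Of the 5 astrocyte markers (Gfap, Aqp4, Slc1a3, Aldh1l1, Gja1), only Aqp4 was called in male cortex, at a log2 fold change of -0.51 (adjusted p = 0.00258). Their sum averaged 659 CPM in AL and 597 CPM in IF mice, and its part in the values of Ppp1r3c was not tested. The median absolute log2 fold change in this tissue was 0.13 over the 8 members and 0.14 over all genes.

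In cortex of mice 25 to 40, edgeR called 0 of 8 members and 2 of 18403 genes (0.0109% called, 0% higher and 0.0109% lower). The count over all genes hung on single libraries, with 254 called without AL mouse 26, 202 of them higher, and at most 2 without any other. At an unadjusted p under 0.05 there were 2069 genes and 0 members, and with DESeq2 67 genes and 0 members. Ppp1r3g had 13.1, 14.2 and 19.4 CPM under AL and 13.8, 16.8 and 18.8 CPM under IF, a range inside that of AL (log2 fold change 0.13 ± 0.0954). The difference in cortex response between the sets was called for none of 8 members (2.03% of 19547 genes), and for Ppp1r3g it was -0.22 ± 0.138 (adjusted p = 0.476). There, 3007 genes and 1 member, Ppp1r3c at 0.28 ± 0.136, had an unadjusted p under 0.05, and DESeq2 called 698 genes and 0 members.

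**Figure D4:**
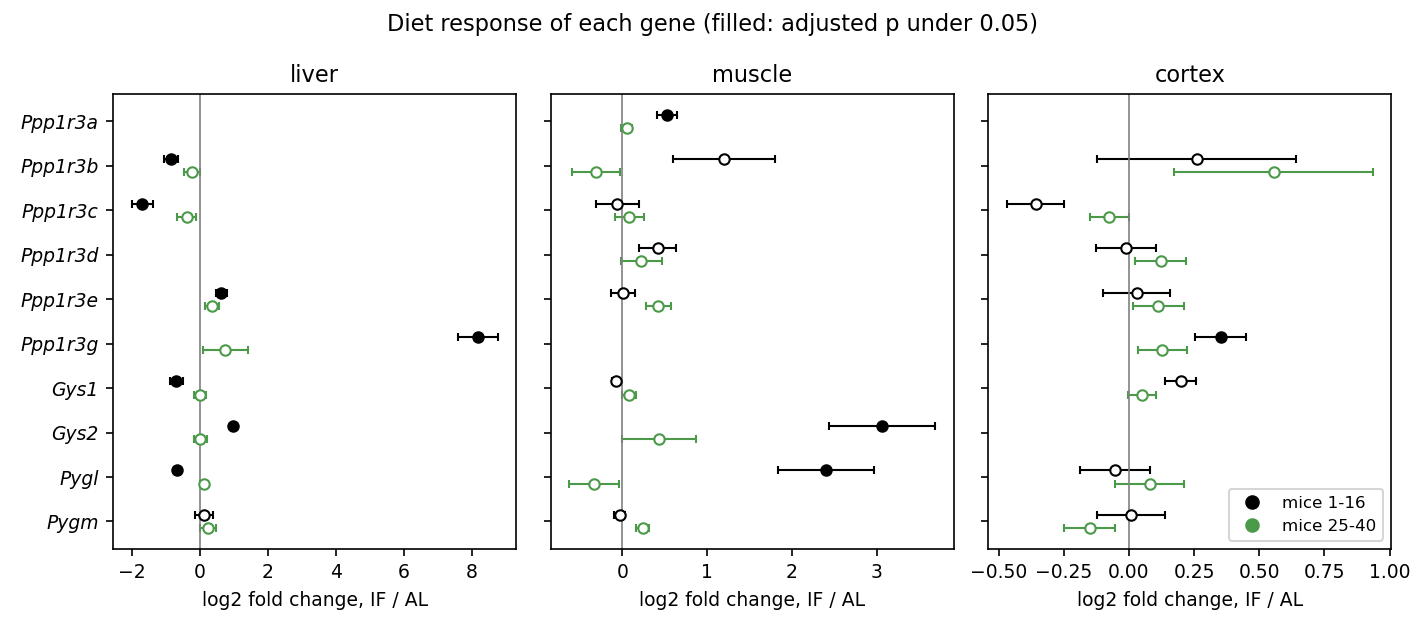
Log2 fold change of each gene under IF against AL, with its SE, in liver, muscle and cortex of mice 1-16 (black) and mice 25-40 (green), each panel with its own axis. Filled points have an adjusted p under 0.05, and genes below the filter on low counts have no point. The filled points number 7 in liver, 3 in muscle and 1 in cortex, all in mice 1-16.

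Tissues were then compared for their responses in 1 fit over the male libraries. Liver and muscle differed for 8 of 10 members (33.7% of 21608 genes), liver and cortex for 5 (30.1%) and muscle and cortex for 2 (5.21%). These counts include members that were below the filter in 1 of the tissues or, for Ppp1r3a between liver and cortex, in both. Among the 7 members past the filter in both tissues, 6 were called between liver and muscle (46.1% of all such genes), 4 between liver and cortex (39.1%) and 1 between muscle and cortex (7.18%). The 6 include Gys2, with 38 counts in AL and 353 in IF muscle. The 4 include Ppp1r3g, with 47 counts in AL and 16226 in IF liver. Both thus passed the filter mainly through their IF libraries, and no stricter filter was run on these contrasts. Between liver and muscle the smallest adjusted p was that of Pygl, at a log2 difference of -3.12 ± 0.443 (adjusted p = 2.22e-07), for it was lower under IF in liver and higher in muscle. The muscle part of this difference moved with the adipocyte markers, with which as a covariate Pygl was not called in muscle. For Ppp1r3c the response of liver was below that of muscle by -1.68 ± 0.334 (adjusted p = 8.12e-05) and below that of cortex by -1.37 ± 0.342 (adjusted p = 0.00163). Gys1 gave -0.66 ± 0.152 against muscle (adjusted p = 0.000551) and -0.92 ± 0.156 against cortex (adjusted p = 8.3e-06).

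For Gys2 the difference between liver and muscle was -2.16 ± 0.5681 (adjusted p = 0.00239), and its muscle part was likewise not called with the adipocyte covariate. For Ppp1r3b it was -2.12 ± 0.550 (adjusted p = 0.00208), though this gene was not called in muscle, where IF mouse 12 was far from its group, and the difference was not tested without that mouse. Ppp1r3g in liver exceeded its response in cortex by 7.79 ± 0.480 (adjusted p = 3.22e-17). Pygl in muscle exceeded its response in cortex by 2.48 ± 0.474 (adjusted p = 0.000659). Its muscle part came down from 2.40 to 1.04 without IF mice 9, 10 and 12, and was not called with the adipocyte covariate (0.91, adjusted p = 0.180). The difference itself was not tested under these alternatives. The members below the filter in a tissue by itself were Ppp1r3g in muscle (14 counts over 16 libraries), Ppp1r3a in liver (16 counts under AL, 5 under IF) and in cortex (4 and 14), Gys2 in cortex (28 and 24) and Ppp1r3d in liver (61 and 76). With the mouse as a block, Ppp1r3a was no longer called between liver and muscle (-2.24, adjusted p = 0.0591) or between liver and cortex (-3.21, adjusted p = 0.0598). Nor was Gys2 between muscle and cortex (3.24, adjusted p = 0.0914). These log2 differences stayed close to those without the block (-2.23, -3.15 and 3.40). In mice 25 to 40 edgeR called 0 of 10 members in each contrast, beside 0.0611% of 21292 genes for liver against muscle, 0.0564% for liver against cortex and 0.0047% for muscle against cortex. There 2041, 2494 and 1384 genes had an unadjusted p under 0.05, with 1 member in each contrast, and DESeq2 was not run on these contrasts.

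Other genes of glycogen metabolism were taken from a list of 23, which holds glycogenin, the branching and debranching enzymes, the enzymes that make UDP-glucose, phosphorylase kinase, glycogen synthase kinase 3, the catalytic subunits of PP1 and genes of lysosomal breakdown. In male liver 22 were tested and 15 called (44.6% of all genes), 10 higher (23.5% of all genes) and 5 lower (21.1%). Their median absolute log2 fold change was 0.53, against 0.46 over all genes. Stbd1, which tethers glycogen to membranes, had 13.3, 23.5 and 35.4 CPM in AL mice and 51.6, 60.4 and 71.6 CPM in IF mice (1.35 ± 0.142, adjusted p = 4.62e-08). Its groups did not overlap. Pgm2l1, a relative of the phosphoglucomutases, went from a median of 1.24 to 3.41 CPM (1.37 ± 0.249, adjusted p = 8.56e-05). Nhlrc1, which encodes the ubiquitin ligase malin, went from 1.86 to 0.478 CPM (-1.85 ± 0.409, adjusted p = 0.000687).

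All 3 catalytic subunits of PP1, Ppp1ca, Ppp1cb and Ppp1cc, were higher in male IF liver, at log2 fold changes of 0.53, 0.58 and 0.40. Gbe1, the branching enzyme (0.96), Pgm1 (0.71), Gyg, the primer protein (0.67), Pygb, the brain form of phosphorylase (1.12), and Gaa, the lysosomal glucosidase (0.54), were higher as well. Both genes of glycogen synthase kinase 3, Gsk3a (-0.77) and Gsk3b (-0.41), and the phosphorylase kinase subunits Phka2 (-0.52) and Phkb (-0.44) were lower. All of these genes were picked by their values, Stbd1, Pgm2l1 and Nhlrc1 for the largest change and the others after their values were seen.

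In male muscle 12 of 23 were called (23% of all genes), 9 higher (11.5%) and 3 lower (11.6%), with a median absolute log2 fold change of 0.20 against 0.19 over all genes. Phka2 went from a median of 5.01 to 7.98 CPM without overlap (0.70 ± 0.115, adjusted p = 0.000159). Pygb went from 5.10 to 6.75 CPM (0.76 ± 0.258, adjusted p = 0.044) and was highest in mouse 12, the library with the most adipocyte marker RNA. Gsk3a went from 88.2 to 66.0 CPM (-0.44 ± 0.0750, adjusted p = 0.000206).

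In male cortex 4 of 23 were called (7.21% of all genes), 2 higher (3.79%) and 2 lower (3.43%). Phka1 had at most 16.1 CPM in AL mice and at least 16.2 CPM in IF mice (0.40 ± 0.0829, adjusted p = 0.00973), and Phka2 moved the same way (0.31 ± 0.0729, adjusted p = 0.0174). Ugp2, which makes UDP-glucose for the synthase, had at least 65.6 CPM in AL and at most 62.2 CPM in IF mice (-0.26 ± 0.0491, adjusted p = 0.00527). The fourth was Ppp1cb (-0.19, adjusted p = 0.0443). In mice 25 to 40 edgeR called 0 genes of the list in liver, muscle and cortex (0%, 0.00653% and 0.0109% of all genes), with 1 in liver, 3 in muscle and 1 in cortex at an unadjusted p under 0.05. The difference between the sets was called for 13 of 22 genes of the list tested in liver (23.7% of all genes), 7 of 23 in muscle (14.2%) and 1 of 23 in cortex (2.03%).

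For 1 gene of each role, the genes with the most similar pattern over the 16 liver libraries of mice 25 to 40 were looked up by Pearson's r of log2 CPM among 15937 genes. Those nearest to Ppp1r3g were Ctdsp2 (r = 0.887), Lsm11 (0.886) and Gucd1 (0.852). Nearest to Gys2 were Bcl6 (r = 0.900), Grpel2 (0.895) and Slc8b1 (0.866), and to Pygl they were Gm27003 (r = 0.813), Kalrn (0.798) and mt-Tn (0.793). These values describe the libraries, which share tissue, set and sequencing, and carry no test.

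The genes lie on 8 chromosomes of GRCm39, with Ppp1r3a and Gys2 both on chromosome 6, and Ppp1r3c (chr19:36709131-36714053, minus strand) and Pygm (chr19:6434429-6448489, plus strand) both on chromosome 19. Ppp1r3g (ENSMUSG00000050423) lies at chr13:36142822-36154371 on the plus strand, Gys2 (ENSMUSG00000030244) at chr6:142368339-142418835 on the minus strand and Pygl (ENSMUSG00000021069) at chr12:70237585-70278262 on the minus strand. An annotated gene on the opposite strand overlaps 4 of the 10: Gm30127 shares 6170 bases with Ppp1r3g, Gm45469 654 with Ppp1r3b, Ruvbl2 3253 with Gys1 and F730035M05Rik 3648 with Pygl. The libraries keep the strand, but whether the counting used it is not stated, so reads of such a pair may not be told apart.

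Windows around the start of 7 of the 10 genes were found among the RefSeq promoter windows, of build GRCm38.p6, and Ppp1r3b, Ppp1r3e and Gys2 had none. They were searched on both strands for the E-box CACGTG, the D-box TTATGTAA, the forkhead motif GTAAACA and the cyclic AMP element TGACGTCA. The E-box was in 7.15% of all 32851 windows and in 2 of the 7, those of Ppp1r3c, where it begins at base -104 from the RefSeq start, and Ppp1r3d, at base -226. The D-box was in 0.938%, the forkhead motif in 3.65% and the cyclic AMP element in 1.79% of all windows and in 0 of the 7, which says only that these letters are not in these windows.

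The parts of these windows that lie before any annotated exon in them are shown for the targeting subunits with the largest rise and the largest fall in male liver, with the E-box in capitals. That of Ppp1r3g, found by exact match at chr13:36151639-36151835 of GRCm39 on the plus strand, lies inside the span of the gene in the count table, after the first exon of a longer annotated transcript, and is 61.9% G and C. That of Ppp1r3c, at chr19:36714071-36714254 on the minus strand, is 65.2% G and C and ends where the annotated gene begins, upstream of the RefSeq start. A match is a description of the sequence and shows no binding.
Ppp1r3g: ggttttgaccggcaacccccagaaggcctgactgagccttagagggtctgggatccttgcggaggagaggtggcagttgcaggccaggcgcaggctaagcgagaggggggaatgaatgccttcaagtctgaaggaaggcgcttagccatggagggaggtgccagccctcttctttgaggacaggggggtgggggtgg
Ppp1r3c: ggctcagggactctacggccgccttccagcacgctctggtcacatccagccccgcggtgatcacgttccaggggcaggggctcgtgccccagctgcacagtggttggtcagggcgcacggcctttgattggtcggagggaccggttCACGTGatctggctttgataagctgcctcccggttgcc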

How the data were processed

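Poly-A RNA of the libraries was sequenced, and per the submitters' processing notes the reads were handled with CASAVA and aligned with HISAT2 to mm39. The deposited values are the raw read counts per gene that the authors made, without normalization, together with gene lengths. Of the per-sample columns 1 was not used, cortex of AL mouse 1, which the rule for these genes leaves out. From the counts, CPM were computed over the total of each library. Tests were made in R 4.3.3 with edgeR 4.0.16 (TMM scaling, robust quasi-likelihood fit, filterByExpr with a minimum count of 10 and a minimum total of 15), over all genes and not over the 10 members alone. Differences between sets of mice were tested as an interaction, and those between tissues as contrasts in 1 fit.

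Libraries with the same mouse number were taken as tissues of 1 animal, which the labels do not state, and deviations from the group means correlated between -0.147 and 0.194 across such pairs. Alternatives were RLE size factors, DESeq2 1.42.0, other filters, a block for the replicate number or the mouse, an unadjusted p, each library left out in turn, and the exclusions and covariates named with the results. Not all were run on every result. Differences between the sets of mice were refitted with RLE size factors and DESeq2 only, and those between tissues with RLE size factors and the block for the mouse only. The study gives fewer mice per group for its transcriptome than the count table holds and does not name those left out. AL mouse 2 and IF mouse 10, which its proteome data for liver and muscle do not include, were left out as an alternative for this reason. The text names all 10 members, of the 23 other glycogen genes the 3 with the largest change among those called in each tissue and set and all others called in male liver and cortex, and the 3 genes nearest in pattern to 1 member per role. The members and the lists of pathway and marker genes were chosen with earlier results of these data known. Log2 CPM for patterns used a prior count of 2. Scripts were tested on simulated data. Plotting used matplotlib 3.10.9. Errors cover the spread between mice, and intervals from depth alone would cover counting error only.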

Additional observations from a re-analysis of the deposited data

Results flagged for a closer look

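A library far from the others of its group was found for 10 of 90 groups with a mean of at least 1 CPM, where chance gives about 1 in 20. In mice 1 to 16 these were mouse 11 for Ppp1r3g in IF liver (124 CPM, the next 70.9), mouse 6 for Gys2 in AL liver (119.5 CPM, the next 93.0), mouse 16 for Ppp1r3c in IF muscle (625 CPM, the next 344) and mouse 10 for Gys1 in IF cortex (31.7 CPM, the next 28.2). Mouse 12 stood out in IF muscle for Ppp1r3b (8.29 CPM, the next 2.69) and for Pygl (39.9 CPM, the next 14.8). In mice 25 to 40 they were mouse 29 for Ppp1r3c in AL liver (49.7 CPM, the next 30.1), mouse 27 for Ppp1r3b in AL muscle (2.55 CPM, the next 1.39), mouse 26 for Ppp1r3e in AL cortex (12.02 CPM, the next 8.78) and, as the lowest library, mouse 37 for Ppp1r3d in IF muscle (2.06 CPM, the next 4.93).

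A difference in the response to diet that passed edgeR's interaction test was found 24 times. Between the sets of mice, as mice 25 to 40 minus mice 1 to 16 on the log2 scale, it was 1.34 for Ppp1r3c, -7.37 for Ppp1r3g, 0.72 for Gys1, -0.94 for Gys2 and 0.82 for Pygl in liver. In muscle it was -0.46 for Ppp1r3a, -2.61 for Gys2, -2.71 for Pygl and 0.29 for Pygm. Between liver and muscle of the male mice it was -2.23 for Ppp1r3a, -2.12 for Ppp1r3b, -1.68 for Ppp1r3c, 0.57 for Ppp1r3e, 7.78 for Ppp1r3g, -0.66 for Gys1, -2.16 for Gys2 and -3.12 for Pygl. Between liver and cortex it was -3.15 for Ppp1r3a, -1.37 for Ppp1r3c, 0.56 for Ppp1r3e, 7.79 for Ppp1r3g and -0.92 for Gys1. Between muscle and cortex it was 3.40 for Gys2 and 2.48 for Pygl. The values for Ppp1r3a against liver or cortex, for Ppp1r3g in muscle and for Gys2 in cortex rest on a handful of counts in 1 of the tissues, and for Ppp1r3a between liver and cortex in both. Those for Ppp1r3g with male liver and for Gys2 with male muscle rest on few AL counts (47 and 38). With the mouse as a block, Ppp1r3a did not pass between liver and muscle or between liver and cortex, nor did Gys2 between muscle and cortex. In muscle, Ppp1r3b was not called and came down from 1.20 to 0.39 without mouse 12, and its difference between liver and muscle was not tested without that mouse. Gys2 and Pygl were not called in male muscle with the adipocyte covariate, and no difference was tested with it.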

How the results depend on the processing

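Across 136 results for single members, 1224 of 1316 checks under other settings kept the direction and the side of the threshold, 15 lost a call, 16 gained one and 61 changed sign. The sign changed only where neither fit had a call. Without AL mouse 2 and IF mouse 10, the log2 fold change in male mice became 0.0475 for Ppp1r3c and -0.0444 for Ppp1r3e in muscle, and 0.0275 for Ppp1r3d, -0.0262 for Ppp1r3e and -0.0624 for Pygm in cortex. Without IF mice 9, 10 and 12 it became -0.37 for Ppp1r3b, 0.27 for Ppp1r3c and -0.0569 for Ppp1r3e in muscle. The adipocyte covariate gave -0.22 for Ppp1r3b, 0.12 for Ppp1r3c and 0.0148 for Pygm in muscle, and the erythrocyte covariate -0.0821 for Pygm in liver. For Ppp1r3g in muscle against cortex, RLE size factors gave -0.0229 and a block for the mouse -0.13. Single libraries left out turned the sign in male Pygm in liver (-0.0276 to 0.24), Ppp1r3c (-0.29 to 0.0471) and Ppp1r3e (-0.0483 to 0.0772) in muscle, and Ppp1r3b (-0.0299 to 0.46), Ppp1r3d (-0.0708 to 0.0313), Ppp1r3e (-0.0331 to 0.10) and Pygm (-0.0720 to 0.0617) in cortex. In mice 25 to 40 they did so for Gys1 (-0.0763 to 0.14) and Gys2 (-0.0691 to 0.17) in liver and Ppp1r3c (-0.00847 to 0.19) in muscle. Counts of genes called moved more. With DESeq2 in place of edgeR they were 2237 in male cortex, 6, 81 and 67 in liver, muscle and cortex of mice 25 to 40 and 698 for the difference between the sets in cortex. An unadjusted p under 0.05 held for 5309 genes in male muscle, 4400 in male cortex, and 919, 1644 and 2069 in liver, muscle and cortex of mice 25 to 40. A filter of at least 1 count gave 5 genes in muscle of mice 25 to 40, and RLE size factors 28 for liver against cortex there. Without AL mouse 2 and IF mouse 10, 498 genes were called in male cortex, and Gys2 in muscle was below the filter, as it was with at least 10 counts in every library. With single libraries left out, the count ran from 638 to 2060 in male cortex, from 1 to 3 in muscle of mice 25 to 40 and from 0 to 254 in cortex of that set. The alternatives with erythrocyte or adipocyte markers were chosen after seeing the data, and the erythrocyte covariate left 3995 genes called in male liver. AL and IF mice with 1 replicate number share only the number, and their deviations correlated between -0.263 and 0.456. A block for that number gave 0.0321 for Ppp1r3d in male cortex, called 382 genes there and 0 in cortex of mice 25 to 40, and a block for the mouse called 1 gene for liver against muscle and 0 for liver against cortex in mice 25 to 40. Of the blocks only that for the mouse changed calls of members, those named with the tissue comparisons. The cause of these shifts was not tested. TMM factors over all tissues, with medians of 1.44 in cortex, 0.943 in liver and 0.745 in muscle, moved 29, 3 and 22 of 40 mean levels per tissue by more than 1 SD, so that levels between tissues depend on the scaling. Genes with few counts (Ppp1r3a in liver and cortex, Ppp1r3d in liver, Ppp1r3g in muscle, Gys2 in cortex) allow no statement on a change at this depth.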
